A study of Mus musculus with 9 samples.

Results

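Primary murine microglia kept for 6 h in glioma-conditioned medium (GCM) from LN18 cells were compared with microglia left untreated. LN18 is an established human glioblastoma line, so the medium carries human proteins and the arrays measure mouse transcripts. The 3 GCM LN18 arrays and the 3 control arrays, 6 of the 9 in the series, were chosen by their labels, and the 3 GCM U87-MG arrays (medium of a second human glioblastoma line) entered the fit and are given beside them. All cells came from cortices of C57BL/6J mice at P0-P2, were plated in DMEM with fetal calf serum and received GCM 48 h after seeding. The control is labelled as not stimulated, and whether its medium was exchanged when GCM was added is not stated in the sources used here. RNA of each culture was hybridized to an Affymetrix array, and every value below is a log2 signal that the authors had normalized before deposit. The means of the replicate numbers had also been removed, so the pairs of arrays with the same number carry the contrast and the replicate number was kept as a block in limma. Ranges, gaps and overlap of arrays with different numbers, given below, describe values after that removal. They do not show the spread between cultures. The comparison asks which transcripts of microglia differ after contact with soluble products of glioblastoma cells.

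Microglia are the resident macrophages of the brain. They depend on TGFβ, which acts through the receptor kinases Tgfbr1 and Tgfbr2 and the Smad proteins to keep on the genes that set microglia apart from other macrophages, among them Cx3cr1, Tmem119, P2ry12 and Olfml3. Their sterol synthesis is set by SREBP factors, which Insig1 holds in the endoplasmic reticulum when sterols are plentiful, while a shortage of amino acids or stress of the endoplasmic reticulum acts through Atf4. Glioblastoma cells release many proteins and metabolites that reach microglia, TGFβ among them, and microglia around such tumours change their shape and gene expression.

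Markers of microglia and macrophages had high mean signals on all arrays. The mean log2 signal of 14 measured microglia and macrophage markers was between 9.41 and 9.54 on the control arrays and between 9.75 and 9.77 on the GCM LN18 arrays, and the 14 members all lay above the median probe set (3.40) in both groups. The lowest member mean was 3.44 in control and 3.81 in GCM LN18. Of these markers Cx3cr1 and Tmem119 rose. Lists of astrocyte, oligodendrocyte lineage, neuron, fibroblast and pericyte, endothelium, and lymphocyte and neutrophil markers had array means between 2.84 and 3.71 in the 6 arrays, and none of their measured members was called. The highest member of those lists was Flt1 of the endothelium, with 6.62 in control and 6.89 in GCM LN18. Of 7 border macrophage and monocyte markers, with array means between 5.85 and 5.93, 0 were called and 2 had an unadjusted p under 0.05 from limma. In both groups 4 of the 7 lay above the median probe set, Ms4a7 being highest (10.84 and 10.96). These lists therefore do not set microglia apart from border macrophages. In RNA from whole cultures, fewer cells of a type and less RNA per cell cannot be told apart.

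In GCM LN18, 145 probe sets were higher and 70 lower than in control microglia at a Benjamini-Hochberg adjusted p under 0.05 from limma, together 215 of 45037 tested (0.477%). Higher calls were 0.322% of the probe sets tested and lower calls 0.155%. The change was at least 2-fold for 41 (0.091%), of which 30 were higher and 11 lower. The called probe sets had a median log2 fold change of 0.71 where higher and -0.64 where lower, against a median of -0.001 over all probe sets, and the smallest change called was 0.32 in size. On all 215 the 3 differences within replicate numbers ran in 1 direction and the arrays of the groups did not overlap, while 28.7% of all probe sets had 1 direction and 21.2% no overlap. The test that selected the 215 used these same differences, so both traits are no independent evidence.

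The called probe sets with 1 symbol belong to 140 genes, 92 higher and 48 lower, and another 49 called probe sets have no single symbol here. With each gene represented by its brightest probe set (highest mean over the 9 arrays), 113 of 17097 genes were called (0.661%), 74 higher (0.433%) and 39 lower (0.228%). The other 27 were called on a dimmer probe set alone. Of the 140 genes, 88 have several probe sets, which gave 164 further values: 142 of them had the direction of the call, 95 of these with an unadjusted p under 0.05 from limma. No gene was called in opposite directions.

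The number of calls depended on which arrays were kept. Without GCM LN18 replicate 1 limma called 9 probe sets, without GCM LN18 replicate 2 it called 7, and without GCM LN18 replicate 3 it called 62. Without 1 of the control arrays it called between 128 and 147, and without 1 of the GCM U87-MG arrays between 122 and 327. Fits without some arrays also have fewer residual degrees of freedom, and how much this lowered the counts was not tested. Leaving out all 3 arrays of replicate number 1 left 0 calls, with 3606 probe sets at an unadjusted p under 0.05. Leaving out the arrays of number 2 gave 31 calls and of number 3 gave 4. Without the block, limma called 777 probe sets higher and 723 lower.

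**Figure D1:**
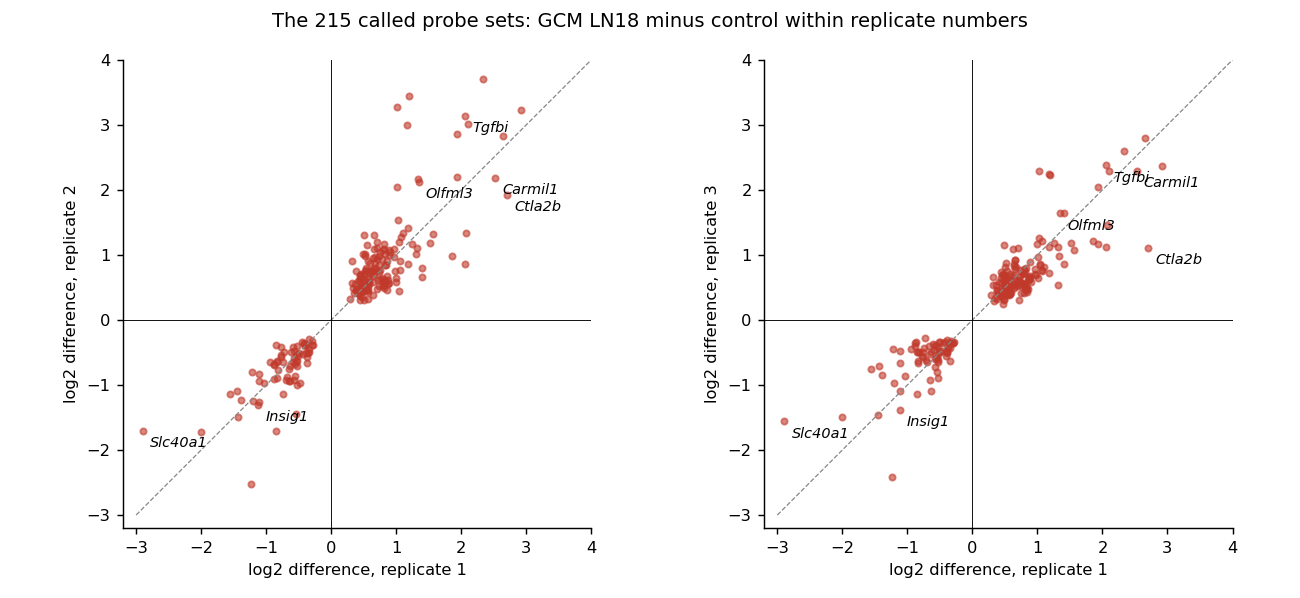
Each point is 1 of the 215 called probe sets, with its GCM LN18 minus control log2 difference in replicate 1 on the horizontal axis and in replicate 2 (left) or replicate 3 (right) on the vertical axis; the dashed line marks equal differences. All points lie in the quadrants of 1 direction, which selection by a test on these same differences favours. Tgfbi lies above the line in replicate 2 and Slc40a1 farthest to the left, at -2.89 in replicate 1.

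The largest rises among the named genes called were those of Tgfbi and Carmil1. Tgfbi, a protein of the extracellular matrix that TGFβ induces, had log2 signals of 8.11, 8.05 and 7.93 on the control arrays of replicates 1 to 3 and 10.17, 11.18 and 10.31 on the GCM LN18 arrays. The GCM LN18 arrays lay at least 2 units above every control, with replicate 2 highest. The mean difference was 2.52 (standard error 0.32, adjusted p = 0.0220 from limma), or 5.75-fold, and the second Tgfbi probe set rose by 2.88. Carmil1, which binds and inhibits the actin capping protein, had 3.40, 3.99 and 3.47 in control and 5.93, 6.18 and 5.76 in GCM LN18. Its control values were near the median probe set, and all GCM LN18 values were well above them. The difference was 2.33 (standard error 0.26, adjusted p = 0.0150 from limma), and its 3 pairs ranged from 2.19 to 2.53.

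Other genes of adhesion and the cell cortex were also higher. Cav1, the scaffold protein of caveolae, went from 4.18, 4.67 and 4.39 to 6.04, 5.66 and 5.61, a rise of 1.36 with a 95% confidence interval of 0.99 to 1.72 (adjusted p = 0.0188 from limma). Itgb5, the β5 chain of a vitronectin receptor that can also activate latent TGFβ, rose by 0.79, both of its probe sets being called, with pair differences of 0.75, 1.05 and 0.56. Itgav, the chain it pairs with, had a difference of 0.57 with an adjusted p of 0.0976 from limma. Of 29 measured members of the list of integrins, caveolae and actin 3 were called, all higher, and the list's median was 0.06. Over all genes by their brightest probe set 0.433% were called higher and 0.228% lower. This background stands behind the counts of calls in every list. Of 28 matrix and protease genes 4 were called, all higher (Tgfbi, Ctla2a, Ctla2b and Fn1), with a median of 0.02. Fn1, fibronectin, rose by 0.67 with nearly equal differences in the 3 pairs (0.64, 0.67 and 0.69). Outside these lists, and chosen after the values were seen, the actin nucleating formins Inf2 (0.74) and Fhod1 (0.50), the actin bundling protein Pls3 (0.69) and the linker protein Plec (0.40) were also called higher.

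Ctla2a and Ctla2b, neighbouring genes on chromosome 13 that encode inhibitors of cysteine proteases of the cathepsin L type, rose side by side. Ctla2a had 7.04, 6.86 and 7.42 in control and 8.97, 9.06 and 8.59 in GCM LN18. Ctla2b had 7.35, 7.90 and 8.28 in control and 10.05, 9.82 and 9.38 in GCM LN18. Both genes were higher on every GCM LN18 array than on any control array, and for both the smallest difference was that of replicate 3 (1.17 and 1.10). The mean rises were 1.77 (adjusted p = 0.0106 from limma) for Ctla2a and 1.91 (adjusted p = 0.0229 from limma) for Ctla2b. The 2 genes are similar in sequence, and how far their probe sets share transcripts was not tested. A further transcript of the same region, 4930486L24Rik, was called 0.62 higher.

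Their promoters are shown because the same letters recur in both at the same spacing. Each window runs from 250 bases before to 50 bases after the RefSeq start, in assembly GRCm38.p6, on the minus strand. Ctla2a has 2 listed starts, and the window of the more upstream one is printed. Capitals mark CAGACA or its reverse complement TGTCTG, the letters of a Smad binding element, and TGANTCA. The latter is a loose search for an AP-1 element, usually TGACTCA or TGAGTCA, that allows any base in the middle.
Ctla2a, chr13:60936576-60936875: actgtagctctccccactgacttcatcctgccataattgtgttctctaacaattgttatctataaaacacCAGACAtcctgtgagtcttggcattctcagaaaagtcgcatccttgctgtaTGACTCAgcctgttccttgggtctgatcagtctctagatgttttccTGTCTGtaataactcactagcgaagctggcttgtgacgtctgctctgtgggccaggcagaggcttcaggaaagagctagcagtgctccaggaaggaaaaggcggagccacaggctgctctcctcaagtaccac
Ctla2b, chr13:60897398-60897697: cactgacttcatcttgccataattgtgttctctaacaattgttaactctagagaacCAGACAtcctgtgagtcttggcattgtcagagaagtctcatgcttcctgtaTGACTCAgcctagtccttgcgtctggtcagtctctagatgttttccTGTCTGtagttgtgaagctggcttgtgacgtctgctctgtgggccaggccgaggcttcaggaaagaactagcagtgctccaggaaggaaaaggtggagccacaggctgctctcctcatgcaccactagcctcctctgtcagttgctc
In Ctla2a the matches began at -180 (CAGACA), -129 (TGACTCA) and -83 (TGTCTG) from the start, and in Ctla2b at -194, -143 and -97, so the order and spacing were equal. The 2 windows are themselves alike: at the best offset without gaps, 173 of 286 bases were the same (60.5%). Their shared matches are therefore not independent, and Ctla2a and Ctla2b are not 2 separate cases in the counts below. Over all 32851 promoters of the RefSeq table, 21.0% held CAGACA on either strand, 7.81% held TGANTCA and 1.85% held both. Of the 92 genes called higher 76 were matched to a promoter, and 6 of these had a window with both (Cd207, Ctla2a, Ctla2b, Hfe, Htr2b and Scoc). Of the 48 genes called lower 38 were matched, and 1 of these, Atp6v0a1, held both. The TGANTCA match read TGAATCA in Htr2b and TGATTCA in Scoc and Atp6v0a1, which are not the usual AP-1 forms. These counts are of genes, while the shares over the RefSeq table are of promoters, several of which can belong to 1 gene. The matched higher genes have 97 promoters, of which 20.6% held CAGACA and 18.6% held TGANTCA, and the lower ones have 51, of which 17.6% and 11.8% did, in each case with or without the other motif. A match describes letters and is not evidence of binding.

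The promoter of Htr2b, a serotonin receptor gene described below, is printed as one with both matches that is not related to Ctla2. Capitals mark CAGACA at -47 and TGAATCA at -163, on the minus strand. TGAATCA meets the loose search and is not a usual AP-1 form.
Htr2b, chr1:86111931-86112230: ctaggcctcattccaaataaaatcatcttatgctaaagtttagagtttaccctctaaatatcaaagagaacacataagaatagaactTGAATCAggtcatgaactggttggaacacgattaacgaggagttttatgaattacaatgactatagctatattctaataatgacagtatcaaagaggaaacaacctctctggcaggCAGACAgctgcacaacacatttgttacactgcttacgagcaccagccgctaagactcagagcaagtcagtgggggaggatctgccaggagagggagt
The windows of Tgfbi, Cx3cr1 and Olfml3 held neither these letters nor the other motifs searched, which were GTCTAGAC for Smad (0.213% of all promoters), TCACCCCAC for a sterol element (0.551%), AGAGGAAG for PU.1 (4.55%), CACGTG for an E-box (7.15%) and TGACGTCA for a CRE (1.79%).

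Bbs12 and Cetn4 form a second pair of neighbours called together. Bbs12, a chaperonin-like protein of the basal body, rose by 0.87 (adjusted p = 0.0101 from limma) with pair differences of 1.06, 0.77 and 0.77, and Cetn4, a centrin of the basal body, rose by 0.76 (adjusted p = 0.0108 from limma) with 0.66, 0.70 and 0.93. They lie head to head on chromosome 3, and 107 bases separate their RefSeq starts. The window of Bbs12 on the plus strand, which holds both starts, is printed to show this arrangement, and capitals mark the bases between the starts.
Bbs12 and Cetn4, chr3:37312304-37312603: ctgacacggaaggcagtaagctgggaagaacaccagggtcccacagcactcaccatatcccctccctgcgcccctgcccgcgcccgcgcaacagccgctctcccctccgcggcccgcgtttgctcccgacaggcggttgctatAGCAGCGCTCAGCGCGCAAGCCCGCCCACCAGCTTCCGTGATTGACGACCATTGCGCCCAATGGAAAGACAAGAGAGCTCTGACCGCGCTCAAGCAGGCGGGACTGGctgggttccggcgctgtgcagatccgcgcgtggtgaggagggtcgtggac

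Homeostatic genes of microglia were higher where they were called. Of 25 measured members 4 passed the test, all higher (Olfml3, Cx3cr1, Tmem119 and Bin1), none lower, the median was 0.25 and 18 of 25 lay above 0. Over all genes 0.433% were called higher. Olfml3, a secreted glycoprotein, had 7.64, 7.18 and 7.42 in control and 8.99, 9.30 and 9.06 in GCM LN18. Its groups lay more than 1 unit apart, and its difference of 1.70 (standard error 0.13, adjusted p = 0.00508 from limma) was among those with the lowest adjusted p. Cx3cr1, the fractalkine receptor, had 10.43, 10.23 and 10.19 in control and 11.14, 11.33 and 11.30 in GCM LN18. It rose by 0.97 (standard error 0.08, adjusted p = 0.0101 from limma) on a signal that was already high in control cells. Tmem119, a membrane protein used as a marker of microglia, had 4.12, 3.64 and 3.88 in control and 4.77, 4.96 and 4.65 in GCM LN18, a rise of 0.91 (adjusted p = 0.0445 from limma). The highest control array lay below the lowest GCM LN18 array. Gpr34 (0.75), Golm1 (0.72), Mef2a (0.40) and Ltc4s (0.41) did not pass, with adjusted p between 0.0783 and 0.149 from limma.

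**Figure D2:**
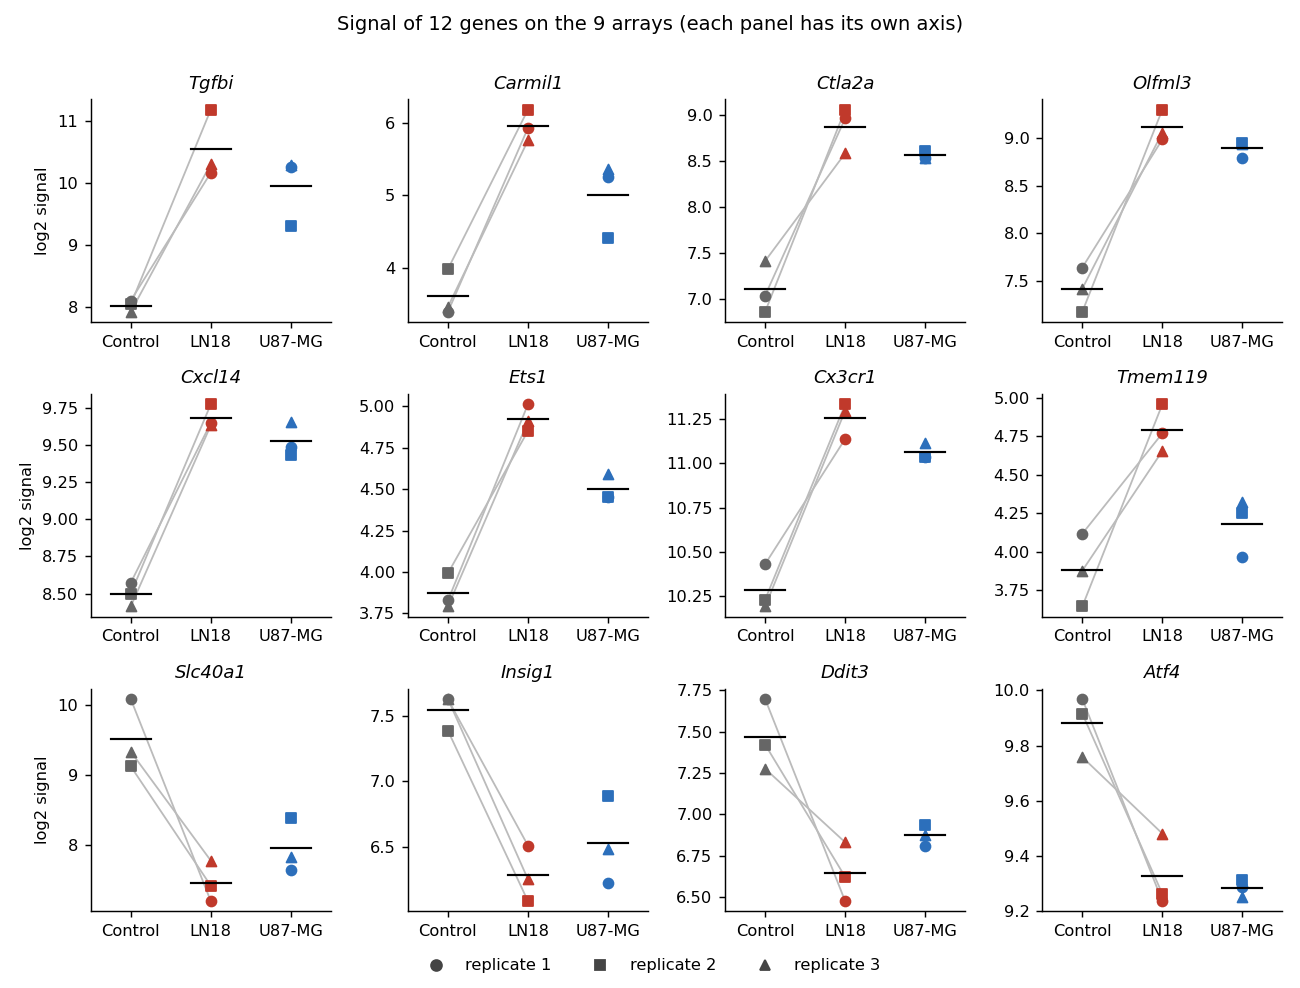
Log2 signal of 12 genes on each array, with the array's group on the horizontal axis, the replicate number as the symbol, grey lines joining control and GCM LN18 arrays of the same number, and bars at the group means (n = 3). In all 12 panels the control and GCM LN18 points do not overlap, as for all called probe sets, 8 genes being higher and 4 lower in GCM LN18.

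Genes of the TGFβ pathway were called at the level of a receptor and of targets. Of 34 measured members 3 were called, all higher, against 0.433% of all genes: Tgfbi, Klf10 and Tgfbr1. The median was 0.08, and 22 of 34 lay above 0. Tgfbr1, the signalling receptor kinase, had 9.89, 9.79 and 9.65 in control and 10.39, 10.40 and 10.34 in GCM LN18, a rise of 0.60 (adjusted p = 0.0406 from limma). Klf10, a transcription factor first described as induced early by TGFβ, rose by 0.69 (adjusted p = 0.0282 from limma), with pair differences of 0.53, 1.01 and 0.53. Smad7, the inhibitory Smad that TGFβ induces, had 0.60, 1.10 and 0.48 (mean 0.73, adjusted p = 0.0528 from limma), just outside the threshold. Skil, a repressor of Smads, had 0.34, 1.54 and 0.91. For Tgfbi, Klf10, Smad7 and Skil the largest difference was that of replicate 2. Smad2 had values of -0.31, -0.33 and -0.34, small and even, with an adjusted p of 0.0624 from limma.

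Id1 and Id3, which BMP and TGFβ receptors induce through Smads, had uneven differences over the replicate numbers. Id1 differed by -0.05, 3.52 and 0.52 in replicates 1 to 3, and Id3 by -0.55, 3.99 and 0.01. Fabp7, a fatty acid binding protein, had 0.38, 2.41 and 0.86. None of the 3 was called. Their control signal in replicate 2 (5.67, 4.97 and 5.44) was the lowest of the controls, and their GCM U87-MG signal in that number (8.66, 9.10 and 7.97) was high as well. Because the replicate means were removed, these values place the control of number 2 relative to its own GCM arrays and not relative to the other cultures.

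Receptors and chemokines were called in the higher direction. Of 32 measured chemokines and chemokine receptors 2 were called, Cxcl14 and Cx3cr1, with a median of 0.04. Cxcl14, a chemokine that is expressed in many tissues without stimulation, had 8.57, 8.50 and 8.41 in control and 9.65, 9.78 and 9.63 in GCM LN18. The spread within each group was small beside the distance between them, and the rise was 1.19 (standard error 0.08, adjusted p = 0.00508 from limma). By qRT-PCR of primary murine microglia the study found no significant rise of Cxcl14 with LN18 medium. Of 23 receptors for metabolites, lipids and nucleotides 4 were called, all higher, against 0.433% of all genes. Htr2b, the serotonin receptor 2B, went from 5.71, 5.70 and 5.65 to 6.75, 6.91 and 6.49, a rise of 1.03 (adjusted p = 0.0237 from limma). Gpr183, the receptor that guides cells along oxysterols, rose by 0.61, Ptger4, the EP4 receptor of prostaglandin E2, by 0.49, and Lpar6, a receptor of lysophosphatidic acid, by 0.47. Ch25h, which makes the precursor of the Gpr183 ligand, had 9.04, 9.64 and 9.42 in control and 10.57, 10.53 and 10.29 in GCM LN18, without overlap, and did not pass (difference 1.09, adjusted p = 0.0563 from limma). Gpr84, a receptor of medium-chain fatty acids, had 0.56, 1.28 and 2.00 (adjusted p = 0.128 from limma).

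The ETS family moved in both directions. Ets1 had 3.83, 3.99 and 3.79 in control and 5.01, 4.85 and 4.91 in GCM LN18, and rose by 1.05 (standard error 0.08, adjusted p = 0.00508 from limma). Its control values were little above the median probe set. Of its 4 probe sets 2 were called, and of the 3 other than the brightest one 2 shared its direction. Ets2 had 9.06, 9.14 and 9.05 in control and 8.41, 8.38 and 8.53 in GCM LN18, a difference of -0.64 (standard error 0.07, adjusted p = 0.0124 from limma). Neither gene had a control array within the range of the GCM LN18 arrays. Elk3, another ETS factor, was called 0.64 higher on a dimmer probe set, while its brightest one had 0.74 and an adjusted p of 0.117 from limma. Of 25 measured ETS and macrophage transcription factors, by their brightest probe sets, Ets1 and Ets2 were called, against 0.661% of all genes, and the median was -0.04. Tfec, a factor of the MiT family, had -2.10, -0.82 and -0.51 and did not pass (adjusted p = 0.115 from limma).

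Genes of peptide loading on MHC class II were called without the class II chains. H2-DMa and H2-DMb1, which form the chaperone that exchanges peptides on class II molecules, rose by 0.57 (0.47, 0.53 and 0.70 in the 3 pairs) and 0.51 (0.48, 0.44 and 0.60). H2-DMa was called on 1 of its 2 probe sets, and the other had the same direction without an unadjusted p under 0.05 from limma. H2-DMb2 rose by 0.48 (adjusted p = 0.0138 from limma), and the H2-DMb genes are close copies whose probe sets may share transcripts. H2-Ab1, a class II chain, had a signal of 3.22 in control cells, near the median probe set, and a difference of 0.11 (adjusted p = 0.602 from limma). Of 20 measured genes of antigen presentation and costimulation 2 were called on the brightest probe set, against 0.661% of all genes, with a median of 0.01. Cd28 fell by 1.33 on a dimmer probe set (adjusted p = 0.0457 from limma), and on its brightest one it had -0.87, -1.03 and -1.51 (adjusted p = 0.167 from limma).

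The largest fall was that of Slc40a1, which encodes ferroportin, the exporter of iron. It had 10.09, 9.12 and 9.33 in control and 7.19, 7.41 and 7.77 in GCM LN18. The pairs differed by -2.89, -1.71 and -1.56, the largest fall being that of replicate 1. The difference was -2.05 (standard error 0.29, adjusted p = 0.0285 from limma), or 4.15-fold lower, and its second probe set was called as well. Hfe, which takes part in the sensing of iron, rose by 0.44 (adjusted p = 0.0211 from limma). Of 20 measured iron and Nrf2 genes these 2 were called, the median was -0.10 and 16 lay below 0. The glutathione genes Gsr (-0.70) and Gclc (-0.66) had adjusted p of 0.0576 and 0.0737 from limma, and Hmox1 and Gclm were lower in replicate 1 (-0.99 and -1.81) and between -0.11 and 0.20 in the others.

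Genes of sterol and fatty acid synthesis lay below control nearly as a whole, although 1 of 26 measured members passed the test on its brightest probe set. The median was -0.33, 24 of 26 lay below 0, and 17 had an unadjusted p under 0.05 from limma, all lower. Over all probe sets 10.2% had such a p, and in a fit with 1 probe set per gene 2091 of 17097 did. The same background stands behind the counts at an unadjusted p of the other lists. Insig1 had 7.63, 7.39 and 7.63 in control and 6.51, 6.08 and 6.25 in GCM LN18. The 3 pairs differed by -1.12, -1.31 and -1.38, and the mean difference of -1.27 was called (adjusted p = 0.0285 from limma). Stard4, a carrier of cholesterol inside the cell, was called on a dimmer probe set (-0.89, adjusted p = 0.0230 from limma) and had -0.43, -0.85 and -0.51 on the brightest. The synthesis enzymes Lss (-0.87), Fasn (-0.70), Fdft1 (-0.68), Mvd (-0.66), Sc5d (-0.62) and Cyp51 (-0.57) had adjusted p between 0.0840 and 0.253 from limma. Fasn had 0.02 in replicate 1 and -1.01 and -1.10 in the others. Outside the list, Aacs, which makes acetoacetyl-CoA for lipid synthesis, fell by 0.70 (adjusted p = 0.0140 from limma), and Acss1, the acetyl-CoA synthetase of mitochondria, by 0.93 (adjusted p = 0.0492 from limma) with -0.54, -1.45 and -0.80. Aacs was called on 1 of its 2 probe sets, and the other did not share the direction. Acss1 was called on 1 of its 3, and the other 2 had the same direction without an unadjusted p under 0.05 from limma. Lpin1, a phosphatidate phosphatase, was called at -0.77 on a dimmer probe set and had -0.51 on its brightest one (adjusted p = 0.180 from limma).

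The promoter of Insig1 is printed as that of the called gene of this list, on the plus strand. Capitals mark the E-box letters CACGTG at -101, which 7.15% of all promoters held, and the sterol element letters TCACCCCAC were not in this window.
Insig1, chr5:28071162-28071461: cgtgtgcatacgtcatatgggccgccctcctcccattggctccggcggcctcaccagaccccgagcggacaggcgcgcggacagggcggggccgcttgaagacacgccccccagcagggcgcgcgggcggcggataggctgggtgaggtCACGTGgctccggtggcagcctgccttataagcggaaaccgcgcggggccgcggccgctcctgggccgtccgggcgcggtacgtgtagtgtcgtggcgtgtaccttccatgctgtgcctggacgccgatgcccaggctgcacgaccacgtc

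Transcription factors of the response to amino acid shortage were lower. Of 24 measured genes of amino acid and endoplasmic reticulum stress 2 were called, both lower, the median was -0.17, and 12 had an unadjusted p under 0.05 from limma, 11 of them lower. Ddit3, the transcription factor CHOP, had 7.70, 7.42 and 7.28 in control and 6.48, 6.62 and 6.83 in GCM LN18. Atf4 itself had 9.97, 9.92 and 9.76 in control and 9.24, 9.26 and 9.48 in GCM LN18. For both the groups did not overlap and the difference was smallest in replicate 3. Ddit3 fell by 0.82 (adjusted p = 0.0390 from limma) and Atf4 by 0.56 (adjusted p = 0.0427 from limma). The call of Atf4 rests on 1 of its 2 probe sets, and the other did not share the direction.

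The differences of Asns, Phgdh, Trib3 and Slc7a5 varied more over the replicate numbers than those of Ddit3 and Atf4. Asns, asparagine synthetase, had -2.44, -0.75 and -0.59, and Phgdh, the first enzyme of serine synthesis, had -2.41, -0.60 and -0.24. Trib3, a pseudokinase induced by Atf4, had -2.05, -0.81 and -0.08, and Slc7a5, a carrier of large neutral amino acids, had -1.73, -0.71 and -0.33. All were lower in every pair with the largest difference in replicate 1, and none was called. Slc7a1, a carrier of cationic amino acids, fell by 0.68 (adjusted p = 0.0353 from limma), and Yars, the tyrosyl-tRNA synthetase, by 0.64 (adjusted p = 0.0370 from limma). Of the 3 probe sets of Slc7a1 2 were called, and the other did not share the direction. Impact, an inhibitor of the amino acid sensor Gcn2, fell by 0.60 (adjusted p = 0.0108 from limma). The chaperones Hspa5, Calr and Manf and the chaperone-associated Creld2 had the opposite sign in replicate 1 (0.59, 0.54, 0.77 and 0.85), were closer to 0 in replicate 2, and were not called.

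**Figure D3:**
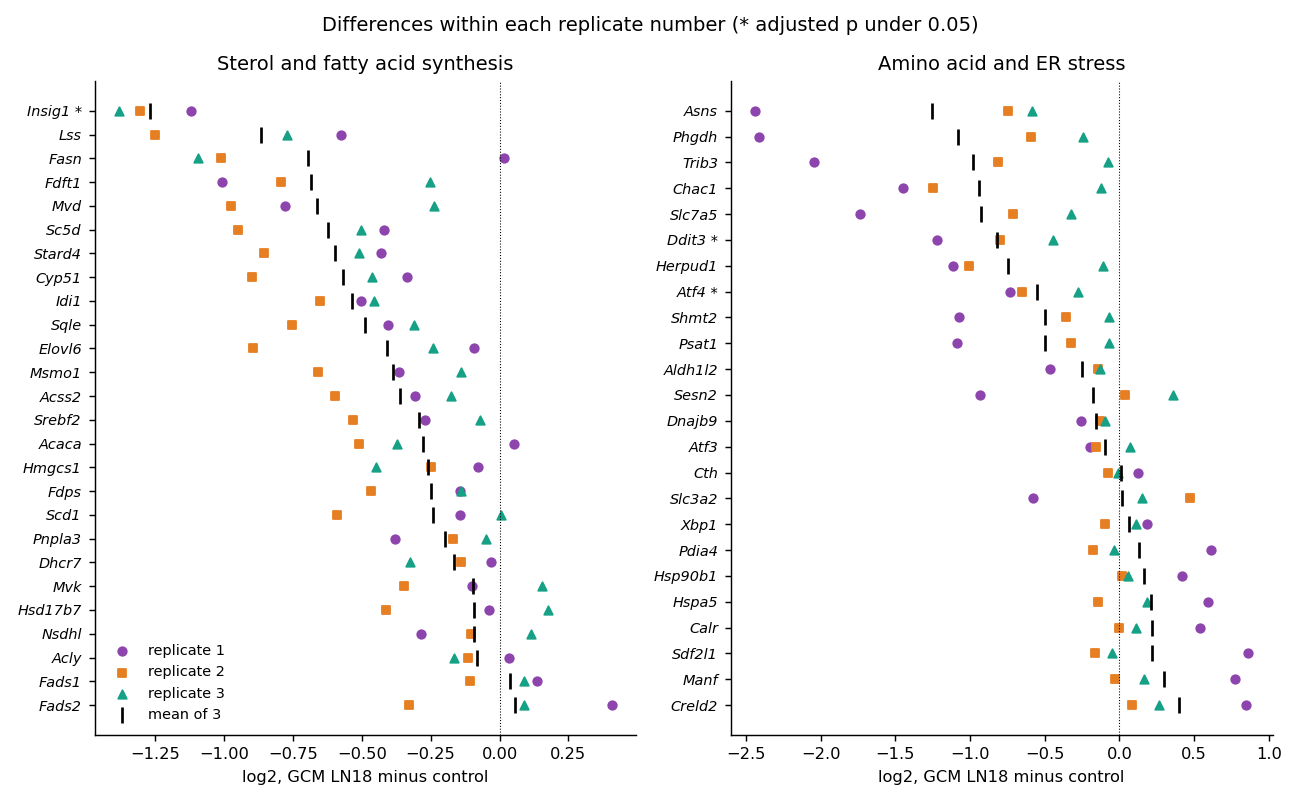
GCM LN18 minus control log2 differences of the measured members of the sterol and fatty acid list (26, left) and the amino acid and endoplasmic reticulum stress list (24, right), with 1 symbol per replicate number, a tick at the mean and an asterisk for an adjusted p under 0.05 from limma. Insig1, Ddit3 and Atf4 were called, and for Asns, Phgdh and Trib3 the point of replicate 1 lies far to the left of the other 2.

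Among other decreases, Tmem158, a membrane protein induced by Ras, went from 5.39, 5.96 and 5.61 to 4.54, 4.25 and 4.47, a mean difference of -1.23 (adjusted p = 0.0194 from limma) without overlap. Tecpr1, which takes part in the joining of autophagosomes and lysosomes, fell by 0.86, the deubiquitinase Mindy1 by 0.84 (4 of its 5 probe sets were called), the exchange factor Vav3 by 0.81, the peptidase Anpep by 0.65, and Cpeb1, a regulator of mRNA tails, by 0.61. Among other increases, the phosphatase-like Pald1 rose by 1.32, Socs2, a feedback inhibitor of growth hormone and cytokine receptors, by 1.24, AU020206 by 1.08, Tmem37 by 1.02, and Adssl1, an enzyme of AMP synthesis, by 0.93. Socs2 was called on 1 of 4 probe sets, and 1 of the other 3 had the same direction. The called one had 3.21, 3.79 and 3.13 in control, near the median probe set. Each of the 11 genes of this paragraph had 3 pair differences of 1 direction, as all called probe sets did. Their adjusted p lay between 0.0140 and 0.0445 from limma.

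No member of the lists of inflammatory genes was called. Of 28 measured NF-κB genes 0 were called, 22 lay below 0, the median was -0.09 and 7 had an unadjusted p under 0.05 from limma, all lower. Cxcl2, which attracts neutrophils, had -2.04, -1.57 and -0.28, Tnfaip2 had -1.36, -1.46 and -0.53, and Ptgs2, the inducible cyclooxygenase, had -1.45, -0.44 and -1.04, with adjusted p of 0.105, 0.0801 and 0.0840 from limma. The chemokines Ccl3 and Ccl4 had -0.42 and -0.50. Of 21 interferon response genes 0 were called, with 1 at an unadjusted p under 0.05 from limma, Irf1 (-0.41). Of 20 disease-associated microglia genes 0 were called, with 2 at an unadjusted p under 0.05 from limma, both lower, and Clec7a, a receptor of fungal glucans, had -0.28.

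Arg1 and Tgm2, genes of alternative activation, had large differences that did not pass. Arg1, arginase, had 3.27, 2.92 and 2.35 in control and 4.12, 5.15 and 4.97 in GCM LN18, and Tgm2, transglutaminase 2, had 5.37, 4.44 and 4.85 in control and 6.12, 7.17 and 6.40 in GCM LN18. In both the groups did not overlap, but the pairs differed by 0.85, 2.22 and 2.62 for Arg1 and by 0.75, 2.74 and 1.56 for Tgm2. The mean difference of Arg1 was 1.90 (adjusted p = 0.0625 from limma), and its control signals all lay under the median probe set of 3.40 and were not shown to be above background. That of Tgm2 was 1.68 with a 95% confidence interval of 0.99 to 2.37 (adjusted p = 0.0649 from limma). Of 20 measured genes of alternative activation 0 were called, with 6 at an unadjusted p under 0.05 from limma, 3 in each direction, among them Il1rn (-0.47) and Cd200r1 (-0.73) on the lower side. Of 74 probe sets with a change of at least 2-fold, 33 did not pass the test.

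Glycolysis and hypoxia genes mostly had values above 0 without a call. Of 24 measured 0 were called, 21 lay above 0, the median was 0.15 and 9 had an unadjusted p under 0.05 from limma, 8 of them higher. Bnip3, Ankrd37, Pfkl and Egln3, targets of hypoxia-inducible factors, had 1.69, 1.57, 1.76 and 1.45 in replicate 1, -0.19, -0.12, -0.03 and -0.02 in replicate 2 and 0.90, 0.74, 0.61 and 0.55 in replicate 3. Cell cycle genes had a median of 0.15 with 19 of 24 above 0, and 0 had an unadjusted p under 0.05 from limma. In the remaining lists, Itgb5 was called among 30 genes of phagocytosis and apoptotic cell uptake, Socs2 among 25 of cytokine feedback and Acss1 among 21 of acetyl-CoA and the TCA cycle. Among 28 immediate early and ERK feedback genes, 18 complement genes and 13 LXR targets and genes of sterol transport limma called 0, and its unadjusted p was under 0.05 for 9, 4 and 2 of them.

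**Figure D4:**
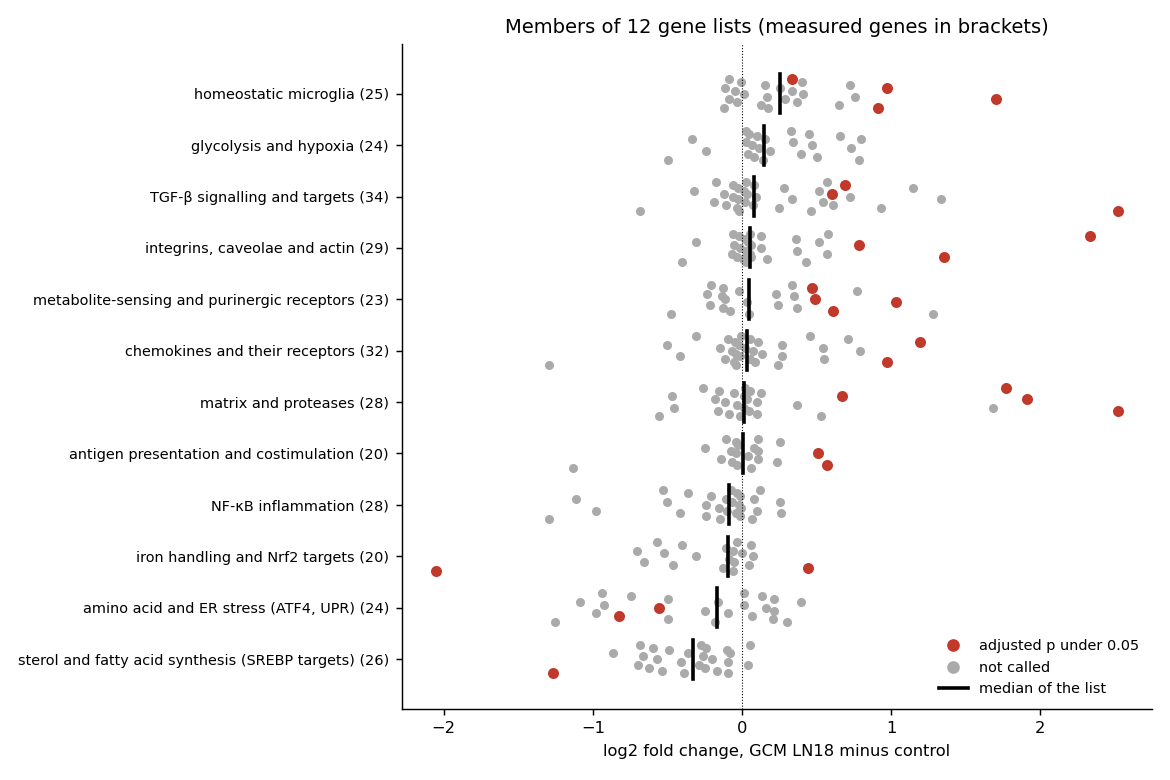
Log2 fold change (GCM LN18 minus control, horizontal axis) of the measured members of 12 gene lists, 1 point per gene by its brightest probe set, red where the adjusted p from limma was under 0.05, with a black bar at the median of the list. The sterol and fatty acid list has the lowest median (-0.33) and the homeostatic list the highest (0.25), and most members of every list are grey.

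The genes that the study names are in part those it picked on these arrays and in part markers it took from elsewhere, so for the former the counts are no independent evidence. Of 19 measured, 7 were called higher (Ctla2a, Ctla2b, Cx3cr1, Cxcl14, Socs2, Tgfbi and Tmem37) and 1 lower (Acss1). Arg1, Tgm2, Ch25h and Smad7, with the values above, did not pass. AI504432 had 1.78, 0.70 and 0.61 (adjusted p = 0.102 from limma) and Il2ra a mean of 0.08, and neither was called. The study itself lists Tgm2 as significantly higher with LN18 medium, and measured it by qPCR in separate experiments. It also measured Mmp14, Myc, Arg1, Ifnb1, Cxcl14, Irf7 and Smad7 by qRT-PCR in primary murine microglia. There it reports no significant rise with LN18 medium for any of these genes, while Cxcl14 was called higher on the arrays. Among those not called, Mmp14, a membrane metalloproteinase, had -0.32, 0.45 and 1.46, Irf7 had -0.71, 0.83 and 0.44, Myc had 0.20, 0.16 and 0.15, Ifnb1 had a mean of -0.10, and Gpnmb, a glycoprotein of macrophages, had -0.12 (95% confidence interval -0.31 to 0.07).

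The values of the other medium stand beside these as a description, since both comparisons use the same control arrays. Against control, limma called 6 probe sets (0.0133%) in GCM U87-MG. Tgfbi differed from control by 2.52 (GCM LN18) and 1.92 (GCM U87-MG), Slc40a1 by -2.05 and -1.56, Insig1 by -1.27 and -1.02, and Atf4 by -0.56 and -0.60. In the direct test of GCM LN18 against GCM U87-MG limma called 0 of 45037 probe sets (0.0%), with 2152 (4.78%) at an unadjusted p under 0.05. Of the 40 named genes called with GCM LN18, those with the lowest unadjusted p there were H2-DMa (0.57 and 0.12 against control, difference 0.44 with a 95% confidence interval of 0.26 to 0.63), Ets1 (1.05 and 0.63, difference 0.42, 0.24 to 0.61), H2-DMb1 (0.51 and 0.19, difference 0.32, 0.17 to 0.47) and Tmem119 (0.91 and 0.30, difference 0.62, 0.28 to 0.95). Each had an adjusted p of 0.956 from limma, and all were chosen by their GCM LN18 values. For Gpr183 the difference between the media was 0.00 (-0.19 to 0.20) and for Ptger4 it was -0.05 (-0.19 to 0.09). Ptgs2, not called, had -0.98 with LN18 medium and -0.05 with U87-MG medium.

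**Figure D5:**
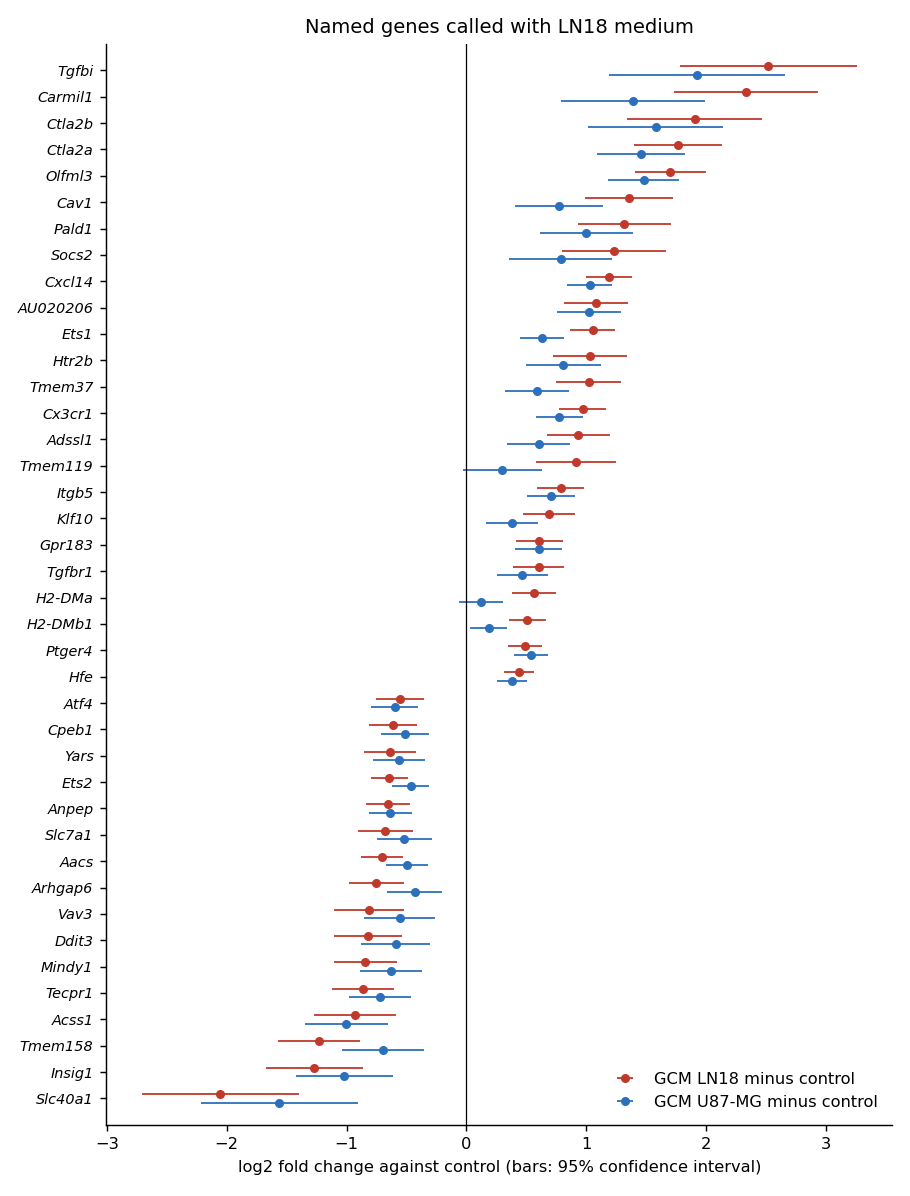
Log2 fold change against control of the 40 named genes called with LN18 medium, with LN18 medium in red and U87-MG medium in blue, with 95% confidence intervals from limma (n = 3 arrays per group). Tgfbi is highest and Slc40a1 lowest in both media, and the intervals of the media overlap for most genes, while Tmem119 and H2-DMa have intervals that reach 0 in GCM U87-MG alone.

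At the edge of the threshold, the last genes inside were Hnrnpr (0.41), Gm20300 (-0.34) and Ppcdc (0.56), with an adjusted p of 0.0495 to 0.0497 from limma, and the first named gene outside was Gas6 (-0.36, adjusted p = 0.0509), a ligand of the receptors that take up apoptotic cells.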

How the data were processed

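RNA of 9 microglia cultures was hybridized to Affymetrix MG-430 PM arrays, 3 per group, and groups were read from the sample labels. The deposited values are log2 signals per probe set, normalized by the authors, and the submitters' notes name limma without a version. The study's methods name RMA for raw arrays where they compare public data sets, and whether RMA was also used here is not stated outright. The deposited log2 values have equal means of the 3 replicate numbers for 100% of probe sets (within 1e-06), so those means were removed before deposit. Of 45141 probe sets, 104 controls were left out and no low signals were filtered. Of the other 45037, 28898 have 1 symbol, 551 several and 15588 are unnamed here.

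The fit used limma 3.58.1 (R 4.3.3) on all 9 arrays, with group means and the replicate number as a block (4 residual degrees of freedom, 6 without it), and tested by eBayes with Benjamini-Hochberg adjustment over all probe sets at 0.05. The design text states separate cortical cultures per replicate, not whether a number marks 1 culture in every group. Deviations of arrays with the same number correlate between -0.70 and -0.19, as removal of the means forces, so this check of pairing is not informative. Arrays have no read depth, and 3 per group limits the precision.

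A gene is represented by its brightest probe set. Named genes are the 15 highest and 15 lowest called, up to 3 called per direction from each of 32 lists (or the member with the lowest p), and those the study names. The members and lists were chosen with earlier results of these data known. Lists have no test. Alternatives were no block, 6 arrays, trend with robust estimation, brighter probe sets, 1 value per gene, quantile normalization, median centring, array weights, treat at 1.2-fold and each array left out, and, chosen after seeing the data, all arrays of a replicate number left out. Promoters are from RefSeq (GRCm38.p6), matched by gene identifier. Promoters of 1 chromosome were left out for the called genes and were not removed from the shares over all promoters.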

Additional observations from a re-analysis of the deposited data

How the results depend on the processing

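The replicate block set the number of calls: with no replicate block limma called 1500 probe sets (777 higher and 723 lower, 51.8% higher against 67.4% with it), and 1 between GCM LN18 and GCM U87-MG, although such a fit counts 6 residual degrees of freedom where the values hold 4. Array weights gave 361 calls (232 higher, 129 lower, and 1 between the media). Trend with robust estimation gave 119 lower calls. With 1 probe set per gene 92 were higher and 17 at least 2-fold, and with the mean of a gene's probe sets 121 were called (77 higher, 44 lower, 15 at least 2-fold), fewer features being tested in both. Treat at 1.2-fold called 12 (10 higher, 2 lower, 9 at least 2-fold). Leaving out 1 array, or all arrays of 1 replicate number, gave between 0 and 327 calls (0 to 212 higher, 0 to 115 lower, 0 to 52 at least 2-fold), and 0 between the media throughout. Without all arrays of replicate 1 limma called 0, with 3606 at an unadjusted p under 0.05. The counts changed by less than 1.5 times with the brighter probe sets, quantile normalization, median centring and only the 6 arrays. The sets of probe sets were less alike with only the 6 arrays: of their 157 calls, 115 were among the 215 of the main fit. Of the 40 named genes called, 25 were called with only those 6 arrays, all 40 with no block, quantile normalization, median centring and array weights. Over 22 alternatives Cxcl14, Ets1 and Olfml3 were called in 20, Ctla2a and Cx3cr1 in 18, Tgfbi and Slc40a1 in 12, and Acss1, Atf4, Ddit3, Hfe, Slc7a1, Socs2 and Yars in 10. Irf7, not called, had the opposite sign without control replicate 2 (-0.15) and without all arrays of replicate 2 (-0.13), and its values ranged up to 0.64 without replicate 1. The causes of these changes were not tested. The number of arrays limits the precision: the median standard error over all probe sets was 0.07 on the log2 scale.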

Other observations

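Genes of nutrient sensing outside the lists were among the calls, chosen after their values were seen. Mlxipl, the carbohydrate-responsive transcription factor ChREBP, rose by 0.82 and Arrdc4, an arrestin-like protein that this factor is known to induce, by 0.74 and, on a dimmer probe set, 1.10. Flcn, folliculin, which signals amino acid supply to mTORC1 at the lysosome, fell by 0.49, and Atp6v0a1, a subunit of the proton pump of lysosomes, fell by 0.63 on a dimmer probe set and had -0.48 on its brightest one (adjusted p = 0.0577 from limma). Ctsc, the protease cathepsin C, was called on dimmer probe sets at 1.49 and 1.34, while its brightest one had 0.20 (adjusted p = 0.409 from limma). Adjusted p from limma lay under 0.05 for each of the other values.

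Receptors of cytokines and surface proteins were also among the calls. Il13ra1, a chain of the receptors of IL-4 and IL-13, rose by 0.46, Il17ra by 0.88 on a dimmer probe set (0.99 on its brightest one, adjusted p = 0.0690 from limma), Cmklr1, the receptor of chemerin, by 0.70, Cd300lf, an inhibitory receptor of myeloid cells, by 0.87 and Cd207, langerin, a lectin of Langerhans cells, by 0.87. Inpp5d, the phosphatase SHIP1, rose by 0.46.

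One of 3 probe sets of Xist, the RNA that silences an X chromosome, was called higher (differences of 0.57, 0.46 and 0.46), while the other 2 had 0.05 and 0.19 and did not pass. No probe set of the Y-linked genes Eif2s3y, Kdm5d and Uty was called.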
